A study of Homo sapiens with 4 samples.

Results

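The clustered protocadherins are 3 tandem gene arrays on chromosome 5, PCDHA, PCDHB and PCDHG, and their accessible chromatin was examined here in BCPAP, a human cell line established from thyroid cancer. The members were all ATAC-seq peaks that overlapped chr5:140150000-140910000 on the hg19 build, an interval of 760 kb called the domain below. Within it, PCDHA was taken as chr5:140165000-140392000, PCDHB as chr5:140430000-140630000 and PCDHG as chr5:140710000-140893000, all of them approximate limits. The domain held 425 of the 949169 peaks on chromosomes 1 to 22 and X, and these merged to 154 of 373425 regions. Of the 154 regions, 37 lay in PCDHA, 34 in PCDHB, 61 in PCDHG and 22 between or beside the clusters.

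ATAC-seq marks exposed DNA by transposase insertion, so that reads pile up into peaks where chromatin is open. There were 2 untreated libraries and 2 libraries of cells treated with 5-azacytidine, an analogue of cytidine that depletes DNA methyltransferases and so reduces methylation at CpG sites, each with its own peak list. The comparison asked, per the series' design text, which regions change in accessibility when DNA methylation is lowered. Dose and duration of the treatment were not used here. The labels name replicates without stating separate cultures, so p-values measure only the spread between these libraries, which may be technical.

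Protocadherins of these clusters are homophilic cell adhesion proteins, best known for giving single neurons a surface identity. In PCDHA and PCDHG, each variable exon has its own promoter and is spliced to constant exons shared by the whole cluster, whereas PCDHB genes are single-exon units without constant exons. Promoters of the variable genes are chosen stochastically in neurons, silenced by CpG methylation elsewhere, and joined by CTCF and cohesin to distant enhancers. Known enhancers lie between PCDHA and PCDHB and past the end of PCDHG. The C-type genes, PCDHAC1, PCDHAC2, PCDHGC3, PCDHGC4 and PCDHGC5, stand last in their clusters and are expressed more uniformly.

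Promoter sequences are shown first because CpG sites are where 5-azacytidine reduces methylation. RefSeq promoters on GRCh38.p14, each 250 bases before to 50 bases after the gene's start, matched 13 of 15 PCDHA genes, 14 of 16 PCDHB genes and 20 of 22 PCDHG genes. These promoters could not be tied to single peaks, because the peak lists are on hg19 and coordinates were not converted. The sequences below therefore describe the genes and not the peaks. In PCDHA, 40 bases around the CGCT core, in capitals, are given for PCDHA1 (GRCh38.p14 chr5:140786082-140786121, plus strand) and 3 more early genes of the array:
PCDHA1: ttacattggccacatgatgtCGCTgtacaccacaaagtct
PCDHA2: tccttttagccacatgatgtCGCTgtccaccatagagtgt
PCDHA4: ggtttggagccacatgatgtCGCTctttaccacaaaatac
PCDHA5: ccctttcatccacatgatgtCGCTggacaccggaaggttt
CGCT is the core of an element shared by variable protocadherin promoters. It was found on either strand in 12 of 13 PCDHA, 14 of 14 PCDHB and 20 of 20 PCDHG promoters, but also in 70.0% of all 35116 promoters of the same length. The longer word ATGTCGCT was found in 9 of 13 PCDHA promoters, in no PCDHB or PCDHG promoter, and in 0.234% of all promoters.

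In PCDHB the same core followed other letters, as in PCDHB2 (chr5:141094540-141094579, plus strand) and 3 others:
PCDHB2: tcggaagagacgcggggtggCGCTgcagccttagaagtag
PCDHB3: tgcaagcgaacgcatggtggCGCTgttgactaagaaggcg
PCDHB4: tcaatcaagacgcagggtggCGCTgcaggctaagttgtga
PCDHB7: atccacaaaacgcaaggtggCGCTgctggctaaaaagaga
The word GTGGCGCT was found in 13 of 14 PCDHB promoters, in none of the other clusters, and in 1.15% of all promoters. In PCDHG the core often followed GC, as in PCDHGA1 (chr5:141330399-141330438, plus strand) and 3 others:
PCDHGA1: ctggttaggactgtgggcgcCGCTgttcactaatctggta
PCDHGB1: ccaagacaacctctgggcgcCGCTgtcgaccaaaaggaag
PCDHGB3: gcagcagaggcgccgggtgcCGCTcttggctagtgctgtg
PCDHGA7: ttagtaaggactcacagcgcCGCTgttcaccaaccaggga
The word GCCGCT was found in 13 of 20 PCDHG promoters, 1 of 13 PCDHA promoters, no PCDHB promoter and 22.7% of all promoters. Each of these words contains CGCT, was searched on both strands, and was picked after the promoters had been looked at. A match is a description of letters and not a bound site.

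Most of these promoters held few CpG sites in the 300-base window, which ends 50 bases after the start. CpG sites further into the genes were not counted. The 43 promoters that are not C-type had a median of 7 CpG in 300 bases, from 2 in PCDHGA4 to 16 in PCDHGB6, and 41 of them lay below the median of 14 over all promoters. The 4 C-type promoters at hand held more, with 27 in PCDHAC1, 15 in PCDHAC2, 18 in PCDHGC3 and 23 in PCDHGC4. The contrast can be read in the 250 bases before the starts of PCDHA2 (chr5:140794602-140794851) and PCDHAC1 (chr5:140926049-140926298), both on the plus strand of GRCh38.p14, with each CpG in capitals:
PCDHA2: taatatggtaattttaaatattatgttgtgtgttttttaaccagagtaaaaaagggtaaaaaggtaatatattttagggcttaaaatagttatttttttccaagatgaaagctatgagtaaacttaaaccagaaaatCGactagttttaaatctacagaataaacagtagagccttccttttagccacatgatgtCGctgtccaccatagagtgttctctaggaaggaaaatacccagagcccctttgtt
PCDHAC1: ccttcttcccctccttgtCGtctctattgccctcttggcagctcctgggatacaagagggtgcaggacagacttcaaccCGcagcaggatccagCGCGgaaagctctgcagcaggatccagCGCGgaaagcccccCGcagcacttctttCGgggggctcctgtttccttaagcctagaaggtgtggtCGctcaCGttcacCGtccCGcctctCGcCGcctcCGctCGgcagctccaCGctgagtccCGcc
PCDHA2 had 2 CpG in this stretch and PCDHAC1 had 18. The median GC content was 38.7% over the 43 promoters, 61.8% over the C-type promoters and 58.7% over all promoters.

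**Figure D1:**
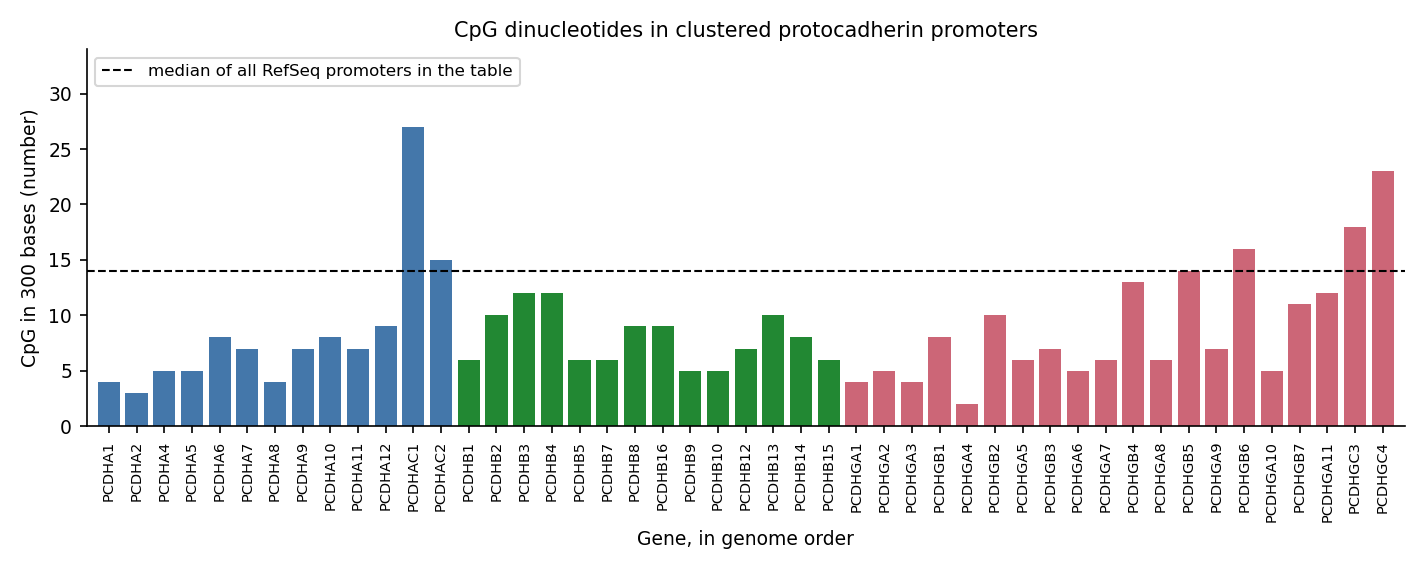
CpG dinucleotides in the 300-base promoter of each clustered protocadherin gene with a RefSeq promoter, in genome order, with PCDHA in blue, PCDHB in green and PCDHG in red. The dashed line is the median of all 35116 promoters, 14, and the C-type genes PCDHAC1, PCDHAC2, PCDHGC3 and PCDHGC4 stand above it.

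Library properties set the scale of what follows. The strength of a peak is given as its summit coverage, the number of reads over the summit that the authors' fold enrichment implies, and no listed peak had fewer than 4. Total reads per library are unknown. The background coverage was 0.875 to 0.913 in the 4 libraries. Over the 105414 regions with a peak in all 4 lists, called shared regions or shared sites here, median summit coverage was 23 and 18 in the untreated replicates and 11 and 16 in the treated replicates. Values of the replicates are given in the order 1, 2 throughout. Scaled coverage is a summit's coverage divided by that library median. Treated replicate 1 stood apart, with the lowest coverages and 45.0% of its listed peaks at a coverage of 4 to 6, against 23.4% to 29.9% in the other lists, so main values that turn without it are also given without it. Markers of thyroid and other cell types were not examined, because no gene positions on hg19 were at hand.

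All 3 clusters were accessible in untreated cells. The domain held 89 and 96 peaks without treatment and 130 and 110 peaks after 5-azacytidine. Both treated lists were above both untreated lists, with 120 ± 14.1 against 92.5 ± 4.95 peaks (SD, n = 2 each), a ratio of 1.30. By an exact two-sided permutation test p was 0.333. No smaller p is possible with 2 libraries in each group, so no comparison here could pass a threshold. The ratio over all chromosomes was 1.14. Among 227 windows of 760 kb on chromosome 5 the median ratio was 1.25, and 91 windows had a higher ratio than the domain. Without treated replicate 1 the domain's ratio was 1.19, against 1.10 over all chromosomes.

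In treated replicate 1 the additional peaks were weak. Untreated lists held 18 and 21 peaks with a coverage of 4 to 6, and treated lists held 49 and 26. Of peaks with a coverage of at least 10, both untreated lists held 62 and the treated lists 46 and 67. In the stronger class the groups overlapped. The authors' peak scores, which are scaled to the same total in every list, summed to 561 and 590 over the untreated domain and to 556 and 577 over the treated domain, a ratio of 0.984. With only peaks whose −log10 q was 5 or more, the domain held 66 and 66 untreated peaks against 57 and 70 treated peaks, and the direction turned.

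PCDHA, the first array, had the smallest ratio of peak counts among the 3 clusters. It held 26 and 27 untreated peaks and 28 and 32 treated peaks, a ratio of 1.13 (exact two-sided permutation p = 0.333). Per 100 kb these were 11.5, 11.9, 12.3 and 14.1 peaks. Set against the number of peaks listed in each library, the higher count was gone, with a log2 ratio of -0.00043. With only peaks whose −log10 q was 5 or more the direction turned, at 21 and 19 untreated against 12 and 20 treated peaks.

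PCDHB, the array of single-exon genes, held 18 and 22 untreated peaks and 28 and 26 treated peaks, a ratio of 1.35 (exact two-sided permutation p = 0.333). Of the arrays it had the fewest peaks per 100 kb in untreated cells, 9 and 11, against 14 and 13 in treated cells. The treated lists were above the untreated ones. When a −log10 q of 5 or more was required, the counts were 15 and 19 against 14 and 17.

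PCDHG had the densest peaks and, with all 4 libraries, the largest ratio among the arrays. It held 29 and 31 untreated peaks and 53 and 38 treated peaks, or 15.8 and 16.9 against 29.0 and 20.8 per 100 kb. The ratio was 1.52 (exact two-sided permutation p = 0.333), and 1.27 without treated replicate 1. Without that library PCDHB had the largest ratio, 1.3, and PCDHA had 1.21, so this ranking rested on treated replicate 1. Of the 53 peaks of treated replicate 1, 26 had a coverage of 4 to 6, against 9, 10 and 8 in the other 3 lists. With that q minimum PCDHG held 18 peaks in each list except treated replicate 2, which held 24. In peak counts the log2 ratio of PCDHA was lower than that of PCDHG by a difference of -0.41, with an exact two-sided permutation p of 0.333.

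**Figure D2:**
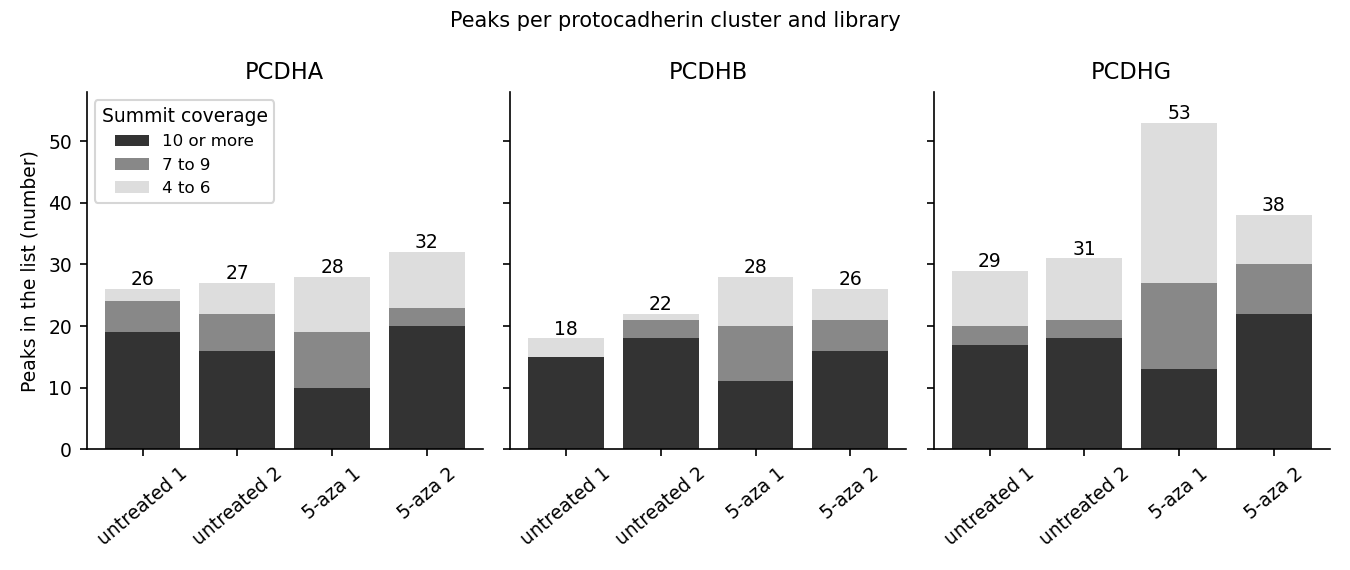
Number of listed peaks in PCDHA, PCDHB and PCDHG per library, stacked by summit coverage in reads (4 to 6, 7 to 9, 10 or more). The 53 peaks of treated replicate 1 in PCDHG are the highest bar, and 26 of them are in the weakest class.

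Peaks were also counted outside the arrays, where a peak that crossed a limit was counted on both sides. The interval between PCDHA and PCDHB held 4 and 2 untreated peaks and 4 and 3 treated peaks. The interval between PCDHB and PCDHG, where RefSeq places SLC25A2 and TAF7, held 5 and 5 against 8 and 2. The last 17 kb of the domain, past the approximate PCDHG end, held 8 and 10 against 10 and 10. The first 15 kb, before PCDHA, held no peak in any list. The longest stretch without a listed peak was 59.9 kb, from 140626276 to 140686176. It began just inside the approximate end of PCDHB at 140630000 and ran on past it.

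Shared sites were found along all 3 arrays. Of the 154 regions, 51 (33.1%) were in all 4 lists, against 28.2% of all regions, with 13 in PCDHA, 15 in PCDHB, 16 in PCDHG and 7 between or beside the clusters. Neighbouring shared sites lay a median of 16.9 kb apart in PCDHA, 8.19 kb in PCDHB and 11.7 kb in PCDHG. Their summits lay close together in the 4 libraries: within 100 bp at 33 of the 51 sites (64.7%, against 60.4% of all shared regions), and over a median range of 58 bp against 69 bp for all shared regions. Peaks of the domain more often came from an original peak with several summits, at 53.9% and 56.2% of its peaks in the untreated lists and 27.7% and 48.2% in treated replicates 1 and 2, than peaks on all chromosomes, at 31.3%, 31.2%, 18.1% and 29.3%. That difference was in the same direction in all 4 lists and was not tested.

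**Figure D3:**
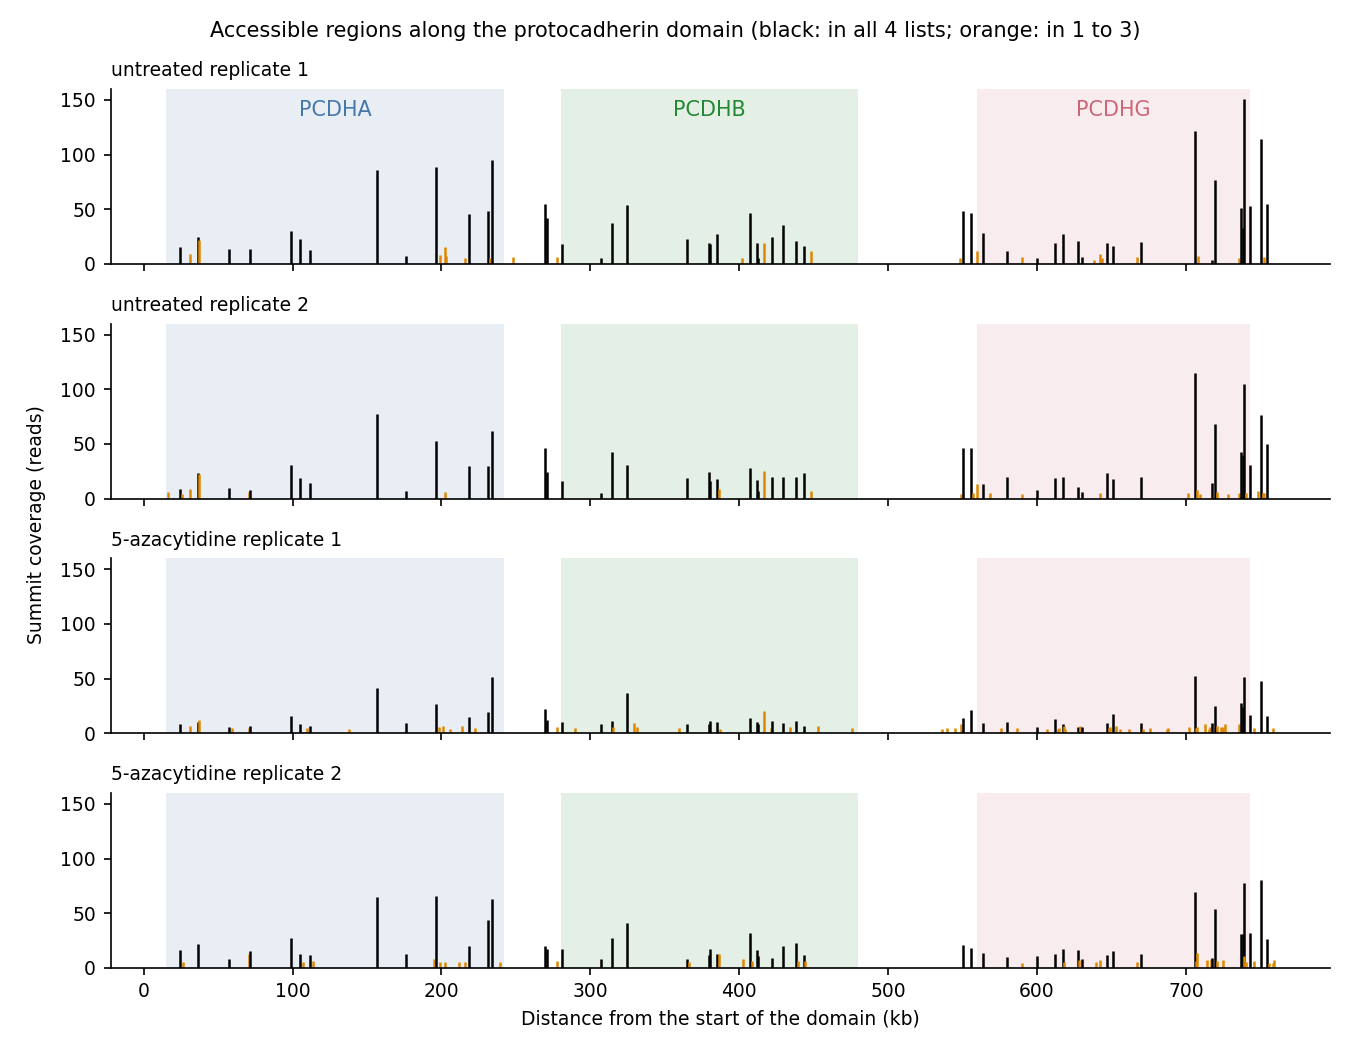
Summit coverage in reads of every region in the domain, by distance in kb from its start, 1 panel per library, with the 3 clusters shaded. Black lines are the 51 regions in all 4 lists and orange lines the rest, and in each library the lines of the highest coverage include sites in the second part of PCDHA and near or just past the end of PCDHG.

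The strongest sites described below are the 5 shared sites of each array with the highest value of their lowest coverage over the 4 lists. In PCDHA they lay mostly in the second part of the array, the side where the C-type genes come last in the gene order. The 7 shared sites in the first part of the interval had median coverages of 15 and 14 untreated and 8 and 15 treated. The 6 sites in the second part had medians of 67 and 41.5 untreated and 23 and 53.5 treated. The site at chr5:140383601-140384157 had a coverage of 95 and 62 untreated and 51 and 63 treated. Divided by the library median these were 4.13 and 3.44 against 4.64 and 3.94, so the groups overlapped. The site at chr5:140305670-140307224 had 86 and 77 reads untreated and 41 and 65 treated. The site at chr5:140345715-140347666 had 89 and 53 against 27 and 66, and the untreated values lay within the treated range after scaling. Weaker ones among the 5 strongest were chr5:140380861-140382190, with 48 and 30 against 19 and 44, and chr5:140248213-140249395, with 30 and 31 against 16 and 27. None of these 5 sites separated the groups in scaled coverage, and by rank within the library the first was higher in both treated lists. Outside that choice, and picked after its values were seen, chr5:140368095-140368686 had 46 and 30 reads against 15 and 20. It was lower in both treated libraries, with a log2 ratio of -0.49 after scaling.

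In PCDHB, which has no C-type gene, shared sites had similar medians in both parts of the array. The 6 sites of the first part had medians of 21 and 21.5 untreated and 9 and 14.5 treated, and the 9 sites of the second part had 21 and 20 against 10 and 16. The strongest site, chr5:140473912-140474945, had 54 and 31 reads untreated and 37 and 41 treated. Its scaled coverage was 2.35 and 1.72 against 3.36 and 2.56, above the untreated values in both treated libraries, with a log2 ratio of 0.54. The site at chr5:140529929-140530932 had 18 and 16 reads against 11 and 17, and a log2 ratio of 0.30 in scaled coverage, also without overlap. At chr5:140557038-140557570 the reads were 47 and 28 against 14 and 32, at chr5:140463936-140464761 they were 37 and 43 against 11 and 27, and at chr5:140588007-140588536 they were 21 and 20 against 11 and 23. At these last 3 sites the scaled values of the groups overlapped.

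The strongest sites of PCDHG lay towards its end, where the C-type genes and the constant exons lie, and included the highest coverage of the domain in each library except treated replicate 2. The 9 shared sites of its first part had a highest coverage of 28 and 23 untreated and 18 and 17 treated, and the 7 of its second part reached 151 and 115 untreated and 52 and 78 treated. At chr5:140888579-140889101 the coverage was 151 and 105 untreated and 51 and 78 treated. The scaled values were 6.57 and 5.83 against 4.64 and 4.88, so both treated libraries were lower, with a log2 ratio of -0.38. At chr5:140855217-140856491 the coverage was 122 and 115 against 52 and 69, with scaled values of 5.30 and 6.39 against 4.73 and 4.31 and a log2 ratio of -0.37. By rank within the library the groups overlapped at this second site, which stood between the 97.7th and the 99.3rd percentile of shared regions in all 4 lists. The other strong sites of the array overlapped between groups: chr5:140868130-140870470 with 77 and 68 against 25 and 54, chr5:140886832-140887856 with 51 and 43 against 28 and 31, and chr5:140887989-140888505 with 33 and 40 against 24 and 31.

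The 7 shared sites between or beside the arrays were strong in untreated cells, and their median was lower in treated cells. In scaled coverage, 5 of them were lower in both treated libraries without overlap, where 22.2% of all shared regions were. None was higher, where 27.2% of all shared regions were. Of the 7 sites, 6 were strong, with a mean scaled coverage of at least 1.5 over the 4 libraries. Of these 6, 4 were lower, where 37.7% of all strong shared regions were. None of the 7 sites was assigned to a known enhancer. Untreated, their median coverage was 53 and 46, the 82.9th and 86.4th percentile of shared regions. Treated, it was 17 and 21, the 70.8th and 62.6th percentile. In log2 scaled coverage the medians were 1.28 ± 0.11 untreated and 0.51 ± 0.17 treated (SD, n = 2 each), a difference of -0.77 (exact two-sided permutation p = 0.333, no overlap). This grouping of 7 sites was made after the values had been seen. Without treated replicate 1 the difference was -0.89, and without treated replicate 2 it was -0.65.

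Between PCDHA and PCDHB, 2 shared sites lay side by side. The site at chr5:140419109-140420142 had 55 and 46 reads untreated and 22 and 20 treated, a log2 ratio of -0.61 after scaling. Its neighbour at chr5:140420262-140421069 had 42 and 24 against 12 and 17, a log2 ratio of -0.55. Both were lower in both treated libraries than in either untreated one. Between PCDHB and PCDHG the 2 shared sites behaved alike: chr5:140699653-140700625 had 48 and 46 against 14 and 21 (log2 -0.84), and chr5:140705473-140706509 had 47 and 46 against 21 and 18 (log2 -0.60). At these 4 sites the scaled values of the groups did not overlap. By rank within the library the groups overlapped at the last of them, which stood at the 78.9th and 86.4th percentile untreated and the 79.8th and 55.0th treated.

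Past the PCDHG end the 3 shared sites differed among themselves. At chr5:140899717-140901293 the coverage was 114 and 76 untreated and 48 and 80 treated, with a log2 ratio of 0.03 after scaling. By rank within the library this site was higher in both treated lists, at percentiles of 98.1 and 98.7 against 97.9 and 96.4. At chr5:140891828-140894818, which crosses the end of PCDHG, the coverage was 53 and 31 against 17 and 32, with overlap after scaling. At chr5:140904222-140904842 it was 55 and 50 against 16 and 26, a log2 ratio of -0.75 without overlap.

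Over the whole domain, more shared sites were lower in treated cells than higher. Of the 51 shared sites, 17 (33.3%) had both treated scaled coverages below both untreated ones, where 22.2% of all shared regions did, and 10 (19.6%) had them above, where 27.2% did. By rank within the library the counts were 16 against a background of 23.7% and 8 against 22.5%. Of its 13 shared sites PCDHA had 3 higher and 3 lower (23.1% each). PCDHB had 5 and 4 of 15 (33.3% and 26.7%), and PCDHG had 2 and 5 of 16 (12.5% and 31.25%). The 7 sites between or beside the arrays had 0 higher and 5 lower (71.4%), so 5 of the 17 lower sites lay outside the arrays. The median log2 ratio over the 51 sites was -0.05, against 0.06 over all shared regions.

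The direction moved with site strength in all shared regions, and this is given beside the counts because its part in them was not tested. No listed peak had fewer than 4 reads, so the lowest possible scaled coverage was 0.17 and 0.22 untreated and 0.36 and 0.25 treated. A weak shared region could therefore not be as low in the treated as in the untreated libraries. The part of this floor in the values below was not tested. Among weak shared regions, with a mean scaled coverage below 0.75 over the 4 libraries, 40.9% were higher in treated cells and 8.68% lower. Among strong ones, at 1.5 or more, 14.8% were higher and 37.7% lower. The domain followed that order, with 7 of 11 weak sites higher and 1 lower, and 1 of 20 strong sites higher and 7 lower. In the middle band 2 of 20 sites of the domain were higher and 9 lower, where 23.4% and 23.0% of all regions were, and the median log2 ratio was -0.31 against 0.0039. The strong sites between or beside the clusters, 6 in number, had a median log2 ratio of -0.60, from -0.84 to 0.03, against -0.15 over all strong regions.

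**Figure D4:**
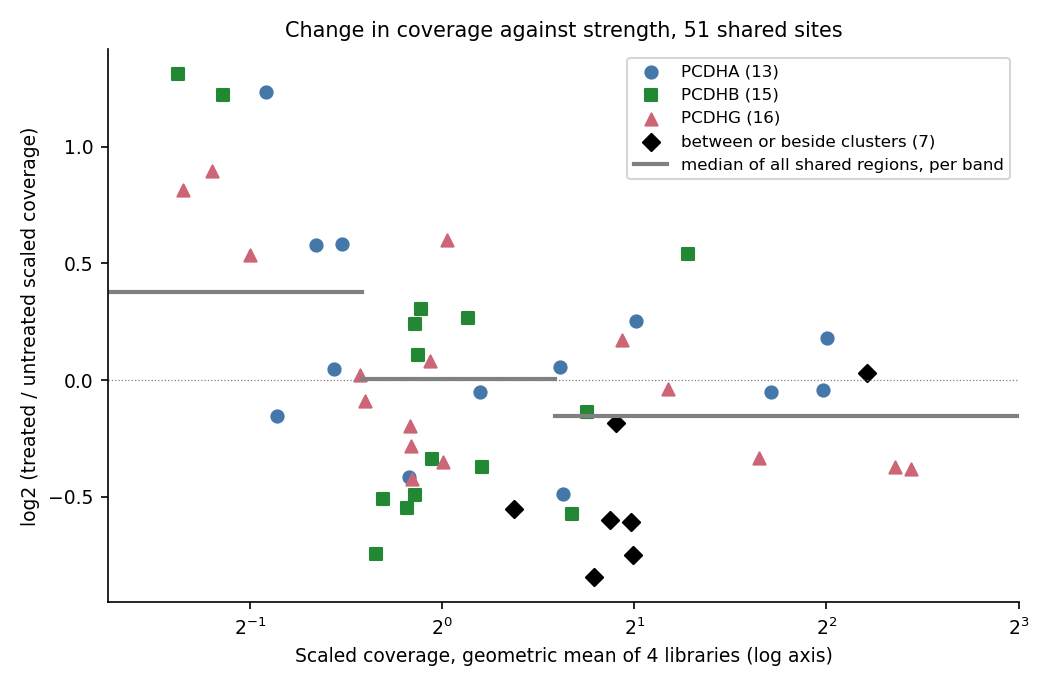
Log2 ratio of treated over untreated scaled coverage against the mean scaled coverage of the 4 libraries (log axis) for the 51 shared sites, by cluster, with grey bars for the median of all shared regions per band of strength. The sites between or beside the clusters lie from -0.84 to 0.03, mostly below the grey bar of their band.

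The sites with the highest log2 ratios of scaled coverage were weak ones inside the arrays. At chr5:140456645-140457434 in PCDHB the coverage was 5 and 5 untreated and 8 and 8 treated, a log2 ratio of 1.31 after scaling. At chr5:140326123-140326665 in PCDHA it was 7 and 7 against 9 and 13 (log2 1.23), and at chr5:140562346-140562983 in PCDHB it was 5 and 7 against 8 and 11 (log2 1.22). These were also the 3 shared sites with more reads in both treated libraries before scaling, where 4.39% of all shared regions had more. For the first of them the untreated scaled values, 0.22 and 0.28, were below 0.36, the lowest possible in treated replicate 1. For the other 2 the scaled values of untreated replicate 1, 0.30 and 0.22, were below it too. At 29 of the 51 sites both treated libraries had fewer reads before scaling, where 47.6% of all shared regions did. The lowest log2 ratios were at the 2 sites outside the arrays given above, chr5:140699653-140700625 and chr5:140904222-140904842, and at chr5:140514535-140515275 in PCDHB, with 23 and 19 reads against 8 and 8 (log2 -0.74).

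Compared as whole clusters, PCDHA, PCDHB and PCDHG were close to the median shared region in strength, and their differences in response were within the spread of replicates or could not pass a threshold. Median coverage was 25, 23, 10 and 20 in PCDHA, 21, 20, 10 and 16 in PCDHB, and 20.5, 20, 9.5 and 14.5 in PCDHG, for the untreated and then the treated replicates. These medians stood between the 38.9th and the 61.5th percentile of shared regions. The treated minus untreated difference in median log2 scaled coverage was -0.14 in PCDHA, -0.08 in PCDHB and -0.17 in PCDHG (exact two-sided permutation p = 0.667 each), and the groups overlapped in all 3. These differences rested on single libraries: PCDHA was 0.085 without treated replicate 1, and without untreated replicate 2 PCDHB was 0.062 and PCDHG -0.012. Over the 51 sites it was -0.09, from 0.14 ± 0.02 to 0.04 ± 0.06 (SD, n = 2 each; exact two-sided permutation p = 0.333). The difference between clusters was -0.07 for PCDHA minus PCDHB, 0.03 for PCDHA minus PCDHG and 0.09 for PCDHB minus PCDHG, with Benjamini-Hochberg adjusted exact permutation p-values of 1 over the 3 pairs. Without treated replicate 1 PCDHA minus PCDHB turned to 0.095, and without treated replicate 2 PCDHA minus PCDHG turned to -0.17. With 2 libraries per group these values do not show that the clusters act alike.

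Few regions were found in both lists of 1 group and neither of the other. The domain had 5 gained regions (3.25%), in both treated lists and no untreated list, where 4.21% of all regions were gained. It had 3 lost regions (1.95%), where 3.35% of all regions were lost. The gained regions were weak, with coverages from 4 to 7. Those in PCDHG were chr5:140874606-140875433, with 6 and 7 treated reads, chr5:140767876-140768426, with 7 and 5, and chr5:140856523-140857101, with 5 and 6. The last of these adjoins the strong site at chr5:140855217-140856491 without overlapping it. Past PCDHG lay chr5:140895444-140896347, with 5 and 6, and chr5:140908378-140908907, with 5 and 4. No gained region lay in PCDHA or PCDHB. With 1 treated list alone deciding, the count was 23 without treated replicate 1 and 48 without treated replicate 2. Over all chromosomes, 18.8% of the 301402 and 26.4% of the 332385 regions with a peak in the lists kept were gained. Regions found only in the list left out drop from the domain too, 43 and 18 of the 154, so neither count is over 154. With a −log10 q of 5 or more the count was 1, where 2.23% of the 151587 regions under that minimum were gained.

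The lost regions were chr5:140709754-140710254 at the approximate start of PCDHG, with 12 and 13 reads untreated, chr5:140597669-140598185 in PCDHB, with 12 and 7, and chr5:140902367-140902893 past PCDHG, with 6 and 5. Peak numbers were compared between the listed peaks on either side of a region, at any distance. Numbers were missing there in at least 1 list without a peak at each lost region and at 3 of the 5 gained regions. These flanking peaks can be far off: for chr5:140597669-140598185 in treated replicate 2, they were in regions ending at 140594613 and starting at 140699653. Numbers were also missing beside regions of the domain that were neither gained nor lost, such as chr5:140699021-140699625, in both lists without a peak there. How often numbers are missing between other neighbouring peaks was not counted. Why numbers are missing is not given in the sources used here. At the lost region at the PCDHG start, numbers were missing in both treated lists.

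About as many regions came from a single library as from several. Of the 154 regions, 78 (50.6%) were in 1 list only, against 45.9% of all regions, and 43 of these were in treated replicate 1 alone (27.9%, against 19.3% of all regions and 25.1% of those on the rest of chromosome 5). Treated replicate 2 alone had 18, and the untreated libraries alone had 8 and 9. A further 11 regions were in 3 lists and 14 in 2. The median coverage of the single-list regions was 5 to 6 and the highest 7 to 11 per library. Of the 43, 22 lay in PCDHG, 10 in PCDHB and 8 in PCDHA. The lists of the 2 treated libraries shared fewer bases with each other in the domain (Jaccard index, shared over total bases, 0.333) than the untreated pair did (0.560), and each treated list was closer to either untreated list (0.357 to 0.453) than to the other treated list.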

How the data were processed

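ATAC-seq was run on BCPAP cells, with 2 untreated and 2 5-azacytidine libraries, sequenced as paired-end reads of 101 bases in the samples' descriptions and 100 in the protocol, per the labels. Per the submitters' processing notes, Trimmomatic, Bowtie2, Picard, MACS2 and hg19 were used, with versions and settings not given in the sources used here. The authors deposited 1 list of 500 bp peaks per library, with a peak score scaled to one total per list, a fold enrichment (a ratio), and −log10 p and q values. In these deposited lists every fold was a whole multiple of 1 step (tolerance 0.01 steps) with Poisson p-values, which gave the summit coverage.

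Peaks of the 4 lists sharing 1 bp or more were merged to regions and placed by midpoint. Group values are means with SD, compared by exact two-sided permutation over 6 assignments. The merging and tests were checked on simulated lists. Strength bands use the geometric mean of scaled coverage and were added after the data were seen. Named sites are up to 5 shared regions per cluster and interval with the highest lowest coverage over the lists, all gained and lost regions, and the 3 shared regions with the largest rise and fall without overlap. The members and lists were chosen with earlier results of these data known. The planned counts of promoters with a peak and of marker and factor genes were not run, as they need hg19 gene positions. Software was scipy 1.17.1, pandas 2.3.3 and numpy 2.4.6 under Python 3.11.15, with matplotlib 3.10.9 for plots.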

Additional observations from a re-analysis of the deposited data

How the results depend on the processing

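Of 128 alternative values, 100 kept their direction (counts of regions: their size within 1.5 times), 14 turned and 14 counts moved further, and no exact permutation test could pass a threshold. All values here are log2 ratios or differences unless called counts. With a −log10 q of 5 or more required, the peak count turned to -0.056 in the domain (from 0.38), -0.32 in PCDHA (from 0.18) and -0.13 in PCDHB (from 0.43), and scaled coverage turned to 0.23 in PCDHA and 0.016 in PCDHG. With lists shortened to the same length the PCDHA peak count was 0, and relative to the number of listed peaks it was -0.00043. Leaving out 1 library gave scaled coverages of -0.37 to 0.085 in PCDHA, positive without treated replicate 1, -0.22 to 0.062 in PCDHB, positive without untreated replicate 2, and -0.33 to -0.012 in PCDHG. Sizes also moved where the direction held: without scaling the domain's value was -0.71 (from -0.092), and with peaks merged within 150 bp that of PCDHA was -0.013 (from -0.14). With 1 library left out, differences between clusters were -0.23 to 0.095 for PCDHA minus PCDHB, positive without treated replicate 1. For PCDHA minus PCDHG they were -0.17 to 0.22. Without treated replicate 2 that last value was -0.17, and without untreated replicate 2 it was -0.016. In peak counts PCDHA minus PCDHG was -0.41 and PCDHB minus PCDHG -0.14. The count of gained regions was 1 under that q minimum (background 2.23%). With 1 library left out it was 6 to 48 (backgrounds 6.68% to 26.4%). It was 48 without treated replicate 2 and 23 without treated replicate 1, since 1 list then decides. For gained and lost regions, backgrounds with 1 library left out are over regions with a peak in the lists kept. The count of lost regions was 6 where peaks had to share 50% of both their lengths, counted over the 89 peaks of untreated replicate 1 (8.12% of all its peaks), and 6 to 12 with 1 library left out (backgrounds 6.52% to 12.2%). Without scaling, the counts of shared sites without overlap were 3 higher and 29 lower, and with 1 library left out they were 14 to 18 higher (backgrounds 38.6% to 43.3%) and 19 to 27 lower (33% to 35.5%). The cause of these shifts was not tested, except that fewer lists or peaks enter them by construction.

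The replicate numbers mark no shared batch in the labels, and deviations of same-numbered libraries correlated at r = -0.052 across 105414 shared regions, which are not independent replicates. With the replicate number as a block, log2 peak-count ratios were 0.37 in the domain, 0.18 in PCDHA, 0.44 in PCDHB and 0.58 in PCDHG. The blocked differences in scaled coverage were -0.092, -0.14, -0.079 and -0.17 in the same order, with a smallest exact p of 0.5. Promoters with a peak, under either window, were not run, as they need gene positions on hg19. Summit coverages of 4 to 7 rest on so few reads that presence in a list is uncertain at this depth, and total reads are unknown.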

Other observations

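Among the 11 regions found in 3 lists, 2 had a coverage of at least 12 in each of these lists and were absent from treated replicate 2. They were singled out after their values were seen. The region at chr5:140566419-140566955 in PCDHB had 19 and 25 reads in untreated replicates 1 and 2 and 20 in treated replicate 1. No peak number was missing there in treated replicate 2, so its absence from that list does not stand beside a gap in the numbering. The region at chr5:140186976-140187548 in PCDHA had 22 and 22 reads untreated and 12 in treated replicate 1, and there a number was missing in treated replicate 2. The reason for either absence was not tested.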
